A study of Bos taurus with 6 samples.

Results

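This account covers 82 genes of ubiquitin conjugation and deubiquitination in blood cells of Sanhe heifers after and before severe cold. The genes were chosen by symbol: E2 conjugating enzymes (UBE2), ubiquitin-specific proteases (USP followed by a digit, USP18 left out), cullins (CUL), F-box proteins (FBXL, FBXO and FBXW), E1 activating enzymes (UBA1 to UBA6), ubiquilins (UBQLN) and UCHL proteases. They were 82 of 6337 genes that the array annotation names with a single symbol. They comprised 4 E1 enzymes, 26 E2 enzymes, 4 cullins, 19 F-box proteins, 3 ubiquilins, 3 UCHL proteases and 23 USP genes. Each gene was read from the probe set, the group of array probes for 1 transcript, with the highest mean log2 intensity over all 6 arrays.

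Ubiquitin is a small protein that cells attach to other proteins to mark them for the proteasome, for sorting to lysosomes or for signalling. An E1 enzyme activates it with ATP, an E2 enzyme carries it, and an E3 ligase passes it to a chosen protein. Cullins are scaffolds of a large class of E3 ligases in which F-box proteins pick the target, ubiquilins deliver tagged proteins to the proteasome, and deubiquitinases such as the USP and UCHL proteases take ubiquitin off again. SUMO and NEDD8 are related small proteins attached by their own E1 and E2 enzymes, and NEDD8 on a cullin switches its ligase on. In white blood cells the system is known for its part in NF-kappaB signalling, in receptor turnover and in the supply of peptides for antigen presentation.

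The study asked how gene expression in blood cells responds to severe cold. Sanhe cattle are a Chinese dual-purpose breed, and all samples came from heifers that shared a cowshed and a mixed ration. The group after cold comprised 3 arrays (numbered 1, 2 and 3) from blood drawn after an exposure of 3 hours outdoors at -32 °C and 15 hours in a cowshed at 5 °C, and the group before cold comprised 3 arrays (4, 5 and 6). The design text gives 3 animals drawn at random from 30, each sampled at both times, but not which arrays share an animal, nor when in the exposure the later blood was taken. The tissue is labelled white blood cells. Most of their defining genes carried clear intensities. The medians over the 6 arrays on the log2 scale were 10.53 for 10 of 10 T cell genes and 10.08 for 4 of 8 B cell genes. They were 11.53 for 5 of 10 neutrophil genes and 8.97 for 5 of 9 monocyte genes. Some genes were dim: CD4 (5.49), CD28 (5.22), IL1R2 (5.37) and MSR1 (4.59) lay under the array medians, which ran from 7.255 to 7.495. Red cell and platelet RNA was present too, with HBB, a haemoglobin chain, at 12.01 and PF4, a platelet chemokine, at 12.58. The summed linear intensities ran from 4658 to 6213 after cold and 4658 to 5724 before cold for B cell genes, from 1120 to 2226 and from 1255 to 1930 for 5 of 8 natural killer genes, and from 7761 to 7925 and from 7886 to 10500 for 3 of 8 platelet genes. In bulk blood cells, fewer cells of a type and less RNA per cell cannot be told apart.

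The arrays differed strongly within the groups, which bears on every gene below. On the first principal component of all 12763 probe sets, which took up 68.4% of the variance, the after arrays scored -23.3, 52.1 and -63.2 and the before arrays -1.31, -16.3 and 52.03. The after 2 and before 6 arrays therefore lay together at one end although their labels put them in different groups, and after 3 lay at the other. Among the 82 ubiquitin genes, 29 differed by more than 2-fold between after 2 and after 3, while 0 did so between after 2 and before 6. Of all 6337 genes, 2126 and 3 did so.

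No ubiquitin gene passed the test for a difference after against before cold. With limma over all probe sets, 0 of 82 had a Benjamini-Hochberg adjusted p under 0.05, against 0.00% of all probe sets, and each adjusted p was 1.00. At an unadjusted p under 0.05 there was 1 of 82 (1.22%), UBA6, against 0.494% of all probe sets and 0.537% of genes at 1 probe set each. The mean was higher after cold in 40 of the 82 and lower in 42, with a median log2 change of -0.04, while 56.3% of all genes had a higher mean and their median was 0.05. The median of all probe sets was 0.019. With each array centred on its median, the median of the ubiquitin genes was -0.0069, against 0.053 for all probe sets. With quantile normalization it was 0.03, against 0.0665. Without after 2 the counts were 32 higher and 50 lower with a median of -0.13, against -0.048 for all probe sets. Without after 3 they were 49 higher and 33 lower with a median of 0.02, against 0.021. The changes ran from -0.85 to 0.45 with standard errors (SE) between 0.24 and 0.57. In 60 of the 82 genes the change was smaller than its own SE, and in 2 it was larger than 2 SE. The p-values treat the 6 arrays as separate samples although pairs of them share an animal.

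**Figure D1:**
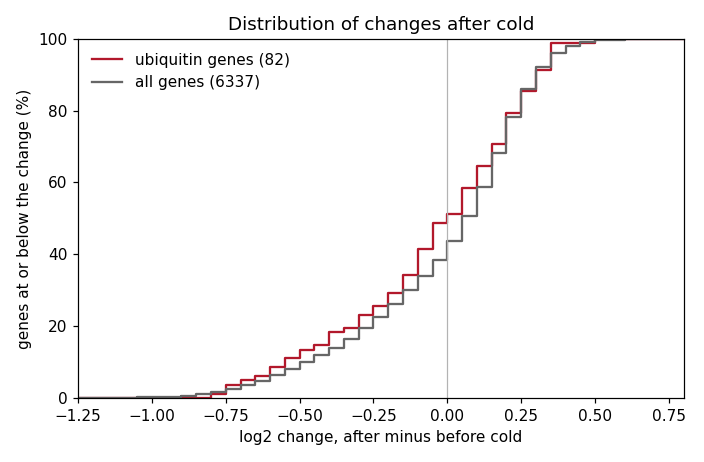
Cumulative share of genes (vertical axis, %) at or below a given log2 change after minus before cold (horizontal axis), in steps of 0.05, for the 82 ubiquitin genes (red) and for all 6337 genes (grey). Both curves cross the middle near 0, with medians of -0.04 for the ubiquitin genes and 0.05 for all genes, and the curve of the ubiquitin genes reaches 100% at 0.5.

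Changes of at least 1.5-fold, whatever their p, were all in one direction. There were 0 such genes higher after cold, against 0.142% of all genes, and 7 lower (8.54%), against 6.82% of all genes, so the share was near that of the array. The 7 were the E1 genes UBA6, UBA3 and UBA2, the cullin CUL2 and the deubiquitinases USP8, USP16 and USP33. Each of the 7 had its lowest value on the after 3 array. Without that array 0 of 82 were lower by 1.5-fold, against 0.679% of all genes. Without the after 2 array 18 were, or 22.0% against 18.5% of all genes. The summed linear intensity of the 5 measured monocyte genes did not overlap between groups, at 4630, 5391 and 4156 after cold and 6042, 7985 and 6111 before cold. The sum followed CTSS, a lysosomal protease, at 11.77, 12.11 and 11.21 on the log2 scale after cold and 12.21, 12.58 and 12.34 before cold. The monocyte receptor gene CD14 ran otherwise and was highest on after 3, with 8.71, 8.94 and 9.55 after cold and 8.80, 9.23 and 8.57 before cold, the groups of CSF1R and CD68 overlapped, and those of MSR1 did not. Their part in the lower means was not tested. Groups that did not overlap were seen in 3 genes higher after cold (3.66%, against 2.02% of all genes) and in 1 lower (1.22%, against 3.00% of all genes). These were UBE2J2, UBE2Z and FBXL12 on the higher side and USP16 on the lower side.

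**Figure D2:**
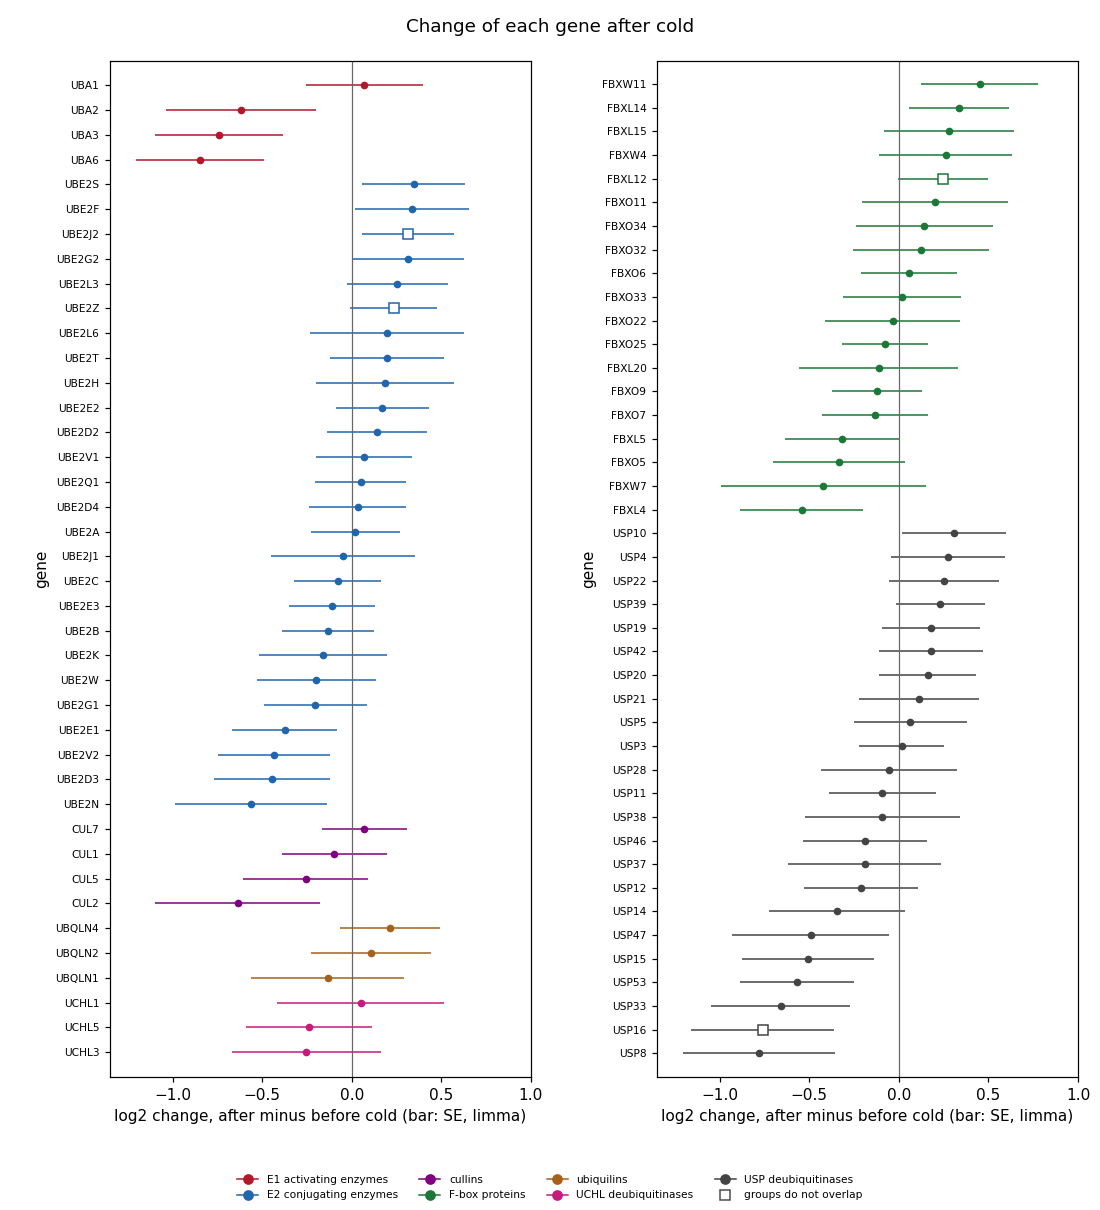
Log2 change after minus before cold (horizontal axis) with its SE from limma (bars) for each of the 82 genes (vertical axis), coloured by family and ordered by change within it. Open squares mark the 4 genes whose groups did not overlap, and UBA6 lies lowest at -0.85.

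The E1 enzymes stand at the head of the pathway, and the 4 measured genes did not run alike. UBA6, which activates ubiquitin and the related protein FAT10, had log2 intensities of 6.34, 6.96 and 5.71 after cold and 6.92, 7.42 and 7.22 before cold. The 3 values before cold lay close together, while those after cold were spread over 1.26, with after 2 just inside the range seen before cold. The change was -0.85 ± 0.36 on the log2 scale, or 1.80-fold lower (limma, unadjusted p = 0.0437, adjusted p = 1.00). By the exact two-sided permutation test of 3 arrays against 3, which ignores shared animals, p = 0.2. The smallest p that this unpaired test can give is 0.1. A further UBA6 probe set gave -0.76 ± 0.39. The UBA6 change was -0.53 without the after 3 array and -1.16 without after 2.

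UBA3, the catalytic subunit of the enzyme that activates NEDD8, was at 8.34, 8.99 and 7.68 after cold and 8.90, 9.24 and 9.09 before cold. Here too after 2 reached the values before cold and after 3 was lowest, and the change was -0.74 ± 0.36, or -0.41 without after 3. Its partner subunit gene NAE1 showed the same order of arrays after cold, at 8.13, 8.78 and 7.38, against 8.62, 8.79 and 8.91 before cold, with a change of -0.68 ± 0.37. NEDD8 itself differed by -0.18 ± 0.28. UBA2, the catalytic subunit of the enzyme that activates SUMO, was at 8.65, 9.65 and 8.01 after cold and 9.08, 9.48 and 9.61 before cold, a change of -0.62 ± 0.42, which became -0.24 without the after 3 array. The SUMO-activating partner SAE1 did not share this order: it was highest on after 3, with 9.10, 8.95 and 9.44 after cold and 9.01, 8.97 and 8.85 before cold.

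UBA1, the main activating enzyme for ubiquitin, had 11.14, 10.28 and 10.96 after cold and 11.04, 10.79 and 10.34 before cold. It was lowest on after 2 and before 6, the groups overlapped throughout, and its change was 0.07 ± 0.33, or -0.27 with array weights. The UBA1 and UBA6 genes thus differed in where their low values lay. On after 3 UBA1 stood above its values on after 2, before 5 and before 6, while UBA6 had its lowest value there.

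**Figure D3:**
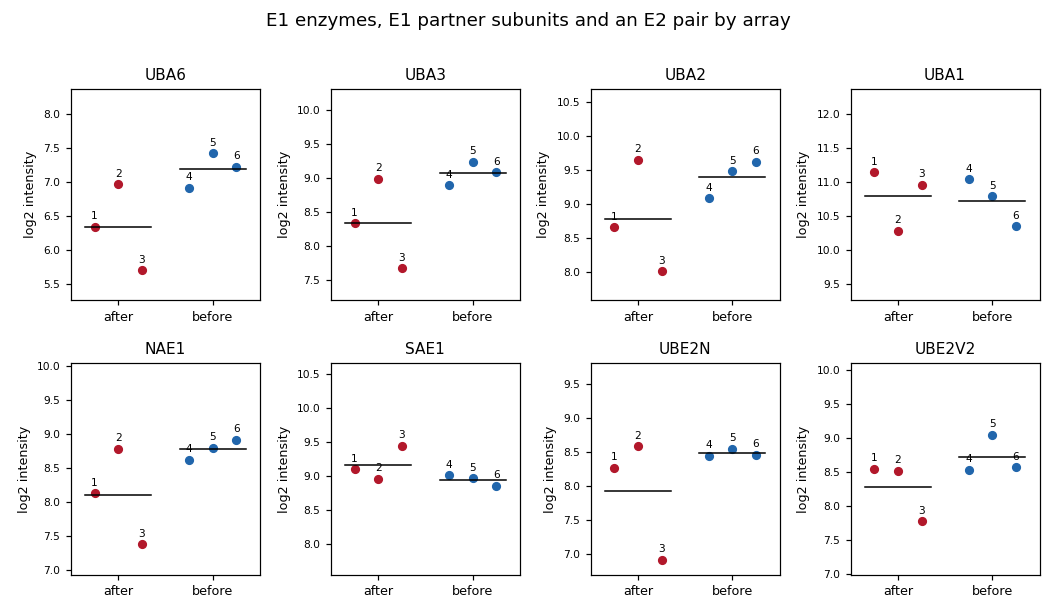
Log2 intensity (vertical axes, each spanning the same number of log2 units) on each array after (red, left) and before cold (blue, right) for 4 E1 genes, the partner subunits NAE1 and SAE1, and the E2 pair UBE2N and UBE2V2. Numbers name the arrays and lines the group means; UBA6, UBA3, UBA2, NAE1, UBE2N and UBE2V2 are lowest on after 3, where UBA1 and SAE1 are not.

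The mean after cold was the higher one in 15 of the 26 E2 genes and the lower one in 11, with a median change of 0.04. Changes ran from -0.56 to 0.35, and 0 E2 genes reached 1.5-fold. UBE2J2 and UBE2Z were the E2 genes whose groups did not overlap. UBE2J2, anchored in the endoplasmic reticulum membrane, where it serves the disposal of misfolded proteins, was at 9.03, 8.92 and 9.45 after cold and 8.82, 8.86 and 8.78 before cold. The before arrays lay close together, under the lowest after array, with a change of 0.32 ± 0.26 (limma, adjusted p = 1.00). The exact permutation p was 0.1, as it must be for every gene whose groups do not overlap. UBE2Z, the E2 that receives ubiquitin and FAT10 from UBA6, was at 9.54, 9.50 and 9.82 after cold and 9.48, 9.36 and 9.31 before cold. The gap between its after 2 and before 4 arrays was narrow, and the change was 0.23 ± 0.24 (limma, adjusted p = 1.00). In both genes after 3 was the highest array, and without it the changes were 0.16 for UBE2J2 and 0.13 for UBE2Z.

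The other E2 enzymes of endoplasmic reticulum disposal were UBE2J1 and UBE2G2. UBE2J1 had 5.73, 6.97 and 5.73 after cold and 5.74, 6.35 and 6.49 before cold, highest on after 2, with a change of -0.05 ± 0.40. UBE2G2 was at 8.33, 7.54 and 8.23 after cold and 7.94, 7.82 and 7.40 before cold, with its low values on after 2 and before 6, and a change of 0.31 ± 0.31. The related UBE2G1, which works with cullin ligases, had 10.01, 10.35 and 9.57 after cold and 10.03, 10.13 and 10.38 before cold and differed by -0.20 ± 0.29.

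UBE2N builds the ubiquitin chains used in NF-kappaB signalling and DNA damage tolerance, together with an inactive partner, UBE2V1 or UBE2V2. It had 8.27, 8.58 and 6.92 after cold and 8.44, 8.55 and 8.46 before cold. A single low array, after 3, set its mean apart: the change was -0.56 ± 0.42, or -0.06 without after 3. UBE2V2 was likewise lowest on after 3, at 8.54, 8.51 and 7.78 after cold and 8.53, 9.04 and 8.57 before cold, with a change of -0.43 ± 0.31. A second UBE2V2 probe set gave -0.52 ± 0.28, and its groups did not overlap. UBE2V1 did not share that low value and was at 10.58, 11.06 and 10.77 after cold and 10.68, 10.55 and 10.98 before cold, a change of 0.07 ± 0.27.

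The UBE2D and UBE2E genes encode closely related E2 enzymes that work with many ligases. UBE2D3 was at 11.57, 11.99 and 10.88 after cold and 11.88, 11.90 and 11.99 before cold, with after 3 apart below the other arrays, and differed by -0.44 ± 0.32. UBE2D2 had 10.59, 10.83 and 10.54 after cold and 10.57, 10.12 and 10.84 before cold, with its low value on before 5 instead, and differed by 0.14 ± 0.28. UBE2D4 differed by 0.03 ± 0.27 and was highest on after 3, at 8.35. UBE2E1 had 10.28, 10.38 and 9.58 after cold and 10.45, 10.37 and 10.54 before cold, low on after 3, and a change of -0.37 ± 0.29. For UBE2E2 and UBE2E3 the changes were 0.17 ± 0.26 and -0.11 ± 0.24. Close paralogues such as these can share probe sequence, and whether these probe sets do was not analysed here.

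UBE2L6 carries ISG15, an interferon-induced relative of ubiquitin, and had one of the 3 widest ranges among the E2 genes. It was at 8.52, 7.43 and 8.87 after cold and 8.33, 8.40 and 7.50 before cold. The low values lay on after 2 and before 6 and the highest on after 3, so the groups overlapped, with a change of 0.20 ± 0.43. A second UBE2L6 probe set also gave 0.20 (SE 0.38). UBA7, the activating enzyme for ISG15, showed the same low arrays, with 7.92, 7.23 and 8.13 after cold and 7.72, 8.01 and 7.36 before cold. ISG15 itself did not, at 9.23, 8.97 and 8.85 after cold and 9.12, 8.82 and 9.33 before cold. UBE2L3, which serves HECT and RBR ligases, was at 8.74, 8.74 and 9.41 after cold and 8.76, 8.79 and 8.58 before cold and differed by 0.25 ± 0.28.

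UBE2F, an E2 for NEDD8, was at 8.60, 7.89 and 8.76 after cold and 8.19, 8.28 and 7.77 before cold, with a change of 0.34 ± 0.32. It was lowest on after 2 and before 6, where UBA3 was not. UBE2C, UBE2S and UBE2T serve cell division and DNA repair: UBE2C and UBE2S work with the anaphase-promoting complex, and UBE2T acts in the Fanconi anaemia pathway. Their changes were -0.08 ± 0.24, 0.35 ± 0.29 and 0.20 ± 0.32, and UBE2S had the highest change of the E2 genes, at 9.14, 8.86 and 9.59 after cold and 8.94, 9.01 and 8.60 before cold. UBE2A and UBE2B, relatives of yeast RAD6 that act in DNA damage tolerance, differed by 0.02 ± 0.25 and -0.13 ± 0.26. UBE2B had 10.96, 11.01 and 10.52 after cold and 10.90, 11.04 and 10.97 before cold. Its lowest array was after 3, apart from the rest.

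UBE2H, known for its part in red cell maturation, had 8.42, 9.22 and 8.17 after cold and 8.36, 7.92 and 8.98 before cold, highest on after 2 and before 6 and lowest on before 5. Its change was 0.19 ± 0.38, and a second UBE2H probe set gave 0.20 ± 0.32. The sums of the 2 measured red cell genes, HBB and ALAS2, were 4287, 5046 and 4529 on the linear scale after cold and 3817, 4260 and 4990 before cold, highest on the same arrays. The sum followed HBB, while ALAS2, a heme enzyme of red cell precursors, ran the other way, with 9.06, 7.56 and 8.09 on the log2 scale after cold and 8.81, 8.05 and 7.46 before cold. Their part in the UBE2H values was not tested. UBE2Q1 was at 11.09, 11.17 and 10.87 after cold and 11.12, 10.76 and 11.11 before cold and differed by 0.05 ± 0.25. UBE2K, an E2 that builds proteasome-targeting chains, and UBE2W, which modifies the amino terminus of its targets, differed by -0.16 ± 0.36 and -0.20 ± 0.33.

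Cullins and F-box proteins make up the ligase part of the set, and 1 of the 4 cullin genes had a higher mean after cold. CUL2, the scaffold of the VHL ligase that turns over hypoxia-inducible factors, had 6.58, 7.61 and 5.76 after cold and 6.95, 7.28 and 7.63 before cold. After 2 lay just under the highest array before cold while after 3 was the lowest array, and the change of -0.64 ± 0.46 became -0.19 without after 3. CUL5, which pairs with SOCS-box proteins in cytokine signalling, was at 5.94, 6.84 and 5.99 after cold and 6.04, 6.75 and 6.74 before cold, with the low values on after 1, after 3 and before 4 and a change of -0.26 ± 0.35. CUL1, the scaffold that F-box proteins bind, had 8.0, 8.71 and 8.03 after cold and 8.31, 8.17 and 8.56 before cold, highest on after 2 and before 6, and differed by -0.10 ± 0.29. Its other probe sets gave 0.09 ± 0.32 and -0.0047 ± 0.26. CUL7 spanned 0.21 over all arrays, the narrowest range of the 82 genes, at 7.81, 7.77 and 7.85 after cold and 7.85, 7.64 and 7.72 before cold, with a change of 0.07 ± 0.24. A second, dimmer CUL7 probe set, with a mean of 5.28, was not steady: it spanned 1.69 and gave -0.16 ± 0.44.

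Among 19 F-box genes the mean after cold was above that before cold in 10 and below it in 9, with a median change of 0.02 and 0 beyond 1.5-fold. In 12 of them the after 2 and before 6 arrays held the 2 highest values (63.2%, against 25.5% of all genes). FBXW7, which recruits cyclin E and MYC for degradation, varied most of all 82 genes, over 2.27. It was at 5.06, 6.67 and 4.40 after cold and 5.70, 5.29 and 6.41 before cold, with after 2 and before 6 high, after 3 lowest and a change of -0.42 ± 0.57, or 0.07 without after 3 and -1.07 without after 2. FBXL20 had 7.72, 8.64 and 7.07 after cold and 7.85, 7.44 and 8.48 before cold, with the same highest and lowest arrays, and differed by -0.11 ± 0.45. FBXL4, known for its part in mitochondrial turnover, was at 6.74, 7.20 and 6.14 after cold and 6.87, 7.27 and 7.57 before cold, a change of -0.54 ± 0.34. FBXL5, an iron sensor that removes the iron regulatory protein, had 9.03, 9.80 and 8.89 after cold and 9.30, 9.59 and 9.78 before cold and a change of -0.32 ± 0.32.

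FBXL12 was the F-box gene whose groups did not overlap. It was at 6.06, 6.07 and 6.47 after cold and 5.99, 6.0 and 5.88 before cold, where after 1 and after 2 lay just above the arrays before cold and after 3 lay higher. Its change was 0.24 ± 0.25 (limma, adjusted p = 1.00), or 0.11 without after 3. The exact permutation p of 0.1 follows from the lack of overlap alone. FBXW11, a beta-TrCP protein that recognises the NF-kappaB inhibitor and beta-catenin, had the highest change of the 82 genes, 0.45 ± 0.33. Its values were 6.30, 6.89 and 6.46 after cold and 6.16, 5.58 and 6.55 before cold, so that before 6 lay above after 1 and after 3, and before 5 lay apart below the rest. FBXW4 had 9.04, 7.95 and 8.96 after cold and 8.66, 8.56 and 7.94 before cold and FBXL15 had 7.18, 6.42 and 7.63 after cold and 7.01, 6.98 and 6.41 before cold. Both were low on after 2 and before 6, the opposite of FBXW7, with changes of 0.26 ± 0.37 and 0.28 ± 0.36.

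FBXO32, which marks muscle proteins during atrophy, was at 6.24, 6.90 and 5.94 after cold and 6.15, 5.71 and 6.84 before cold and differed by 0.12 ± 0.38. FBXO5, an inhibitor of the anaphase-promoting complex, had 6.07, 7.0 and 5.89 after cold and 6.37, 6.47 and 7.12 before cold, a change of -0.33 ± 0.37. FBXO11, which recruits the lymphocyte regulator BCL6, had 5.36, 6.17 and 5.26 after cold and 5.36, 4.74 and 6.08 before cold, lowest on before 5, and a change of 0.20 ± 0.41. FBXO9 and FBXO7 were steady by comparison: FBXO9 spanned 0.46 and FBXO7 0.63 over the 6 arrays, with changes of -0.12 ± 0.25 and -0.13 ± 0.29. The remaining F-box genes FBXL14, FBXO6, FBXO22, FBXO25, FBXO33 and FBXO34 had changes between -0.08 and 0.33.

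**Figure D4:**
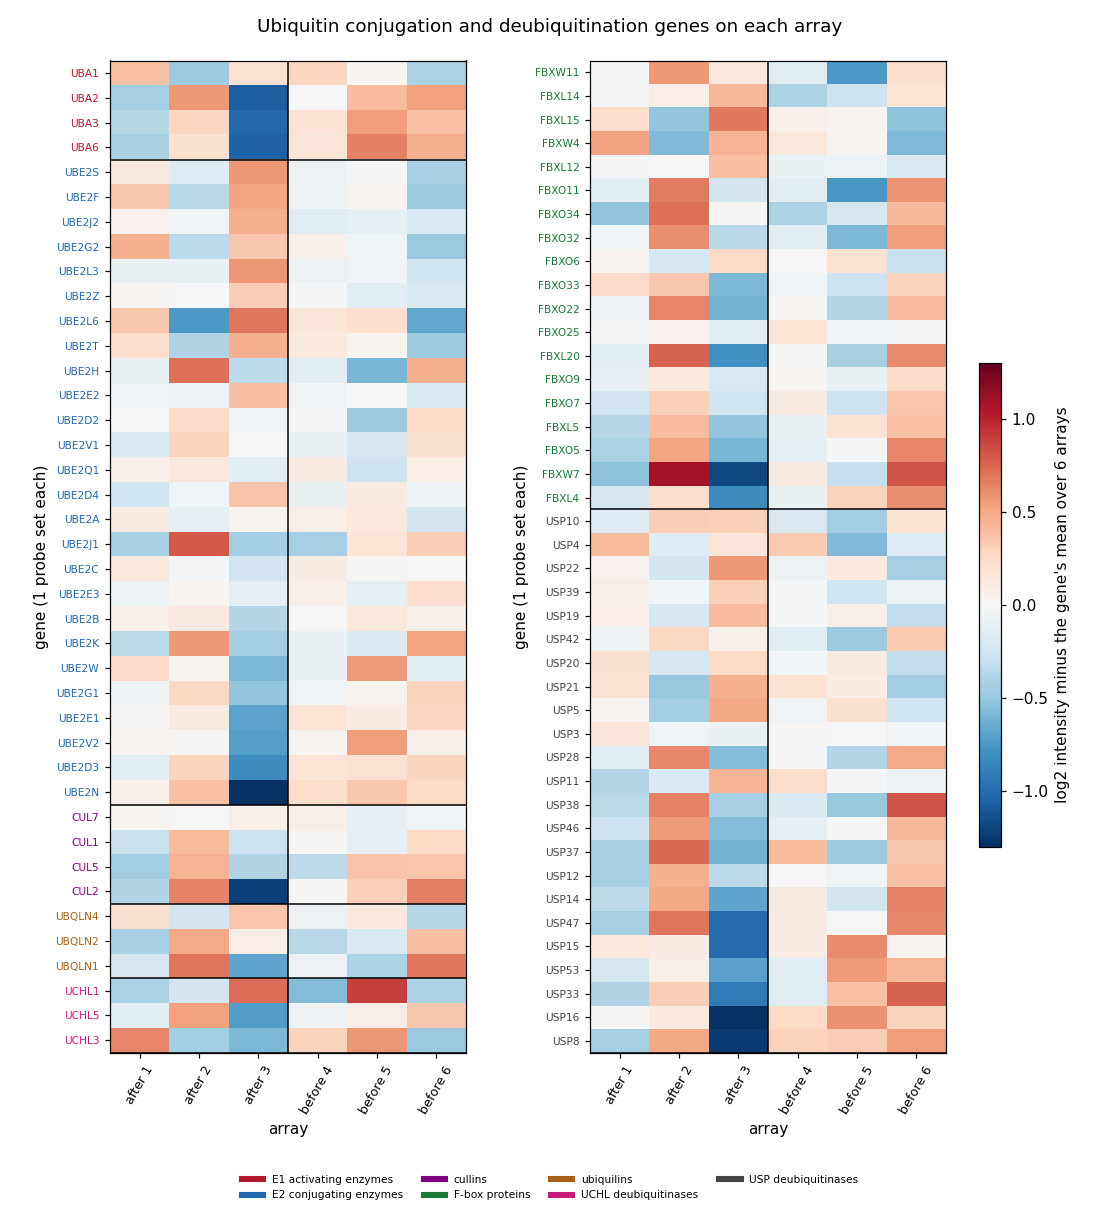
Log2 intensity minus the gene's own mean over the 6 arrays (colour, red above and blue below) for the 82 genes (rows, by family, coloured names) on the arrays after cold (left of the line) and before cold (right). Columns after 2 and before 6 resemble each other, and after 3 holds the lowest value of 38 genes and the highest of 22.

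The ubiquilins are shuttles between tagged proteins and the proteasome. UBQLN1 had 9.80, 10.72 and 9.34 after cold and 9.95, 9.61 and 10.70 before cold, with after 2 and before 6 well above the other 4 arrays, and a change of -0.13 ± 0.43. A second UBQLN1 probe set gave 0.15 ± 0.31, of the opposite sign. UBQLN2 was at 8.38, 9.29 and 8.89 after cold and 8.44, 8.61 and 9.19 before cold, also highest on after 2 and before 6, and differed by 0.11 ± 0.34. UBQLN4 ran the other way, lowest on after 2 and before 6, at 7.47, 7.02 and 7.62 after cold and 7.18, 7.39 and 6.90 before cold, with a change of 0.21 ± 0.28.

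The UCHL proteases trim ubiquitin from small adducts, and their 3 genes followed 3 different orders of arrays. UCHL1, best known from neurons, was at 7.79, 7.97 and 8.93 after cold and 7.64, 9.11 and 7.80 before cold. Its values on after 3 and before 5 lay apart above those of the other 4 arrays, 1 array in each group, and its change was 0.05 ± 0.47. The summed linear intensity of the 5 measured neutrophil genes was highest on the same 2 arrays, with 20110, 18880 and 24930 after cold and 16420, 24890 and 17490 before cold. This sum followed the S100A genes, while FCGR3A was lowest on after 3 and IL1R2 on before 5. The summed intensity of the 10 T cell genes was lowest on the same 2 arrays, with 18560, 15740 and 13560 after cold and 20930, 13560 and 16460 before cold. On after 3 it followed CD3G and CD247, while CD4 and CD8A were highest there, and the median deviation of the T cell genes was -0.08 on after 3 as on before 6. Their part in the UCHL1 values was not tested. UCHL3, which also removes NEDD8, had 10.41, 9.33 and 9.19 after cold and 10.06, 10.34 and 9.29 before cold. It was high on after 1, before 4 and before 5 and low on the other 3 arrays, and differed by -0.25 ± 0.42. UCHL5, bound to the proteasome, was at 8.59, 9.26 and 8.02 after cold and 8.68, 8.82 and 9.09 before cold, lowest on after 3, a change of -0.24 ± 0.35.

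The 23 USP genes divided into 10 with a mean above that before cold and 13 below it, with a median change of -0.09 and 3 at least 1.5-fold lower. USP16 removes ubiquitin from histone H2A. It had 8.76, 8.87 and 7.46 after cold and 9.0, 9.34 and 9.03 before cold. The after 1 and after 2 arrays lay a little under the lowest array before cold and after 3 lay far under it, so the groups did not overlap. The change was -0.76 ± 0.40 (limma, adjusted p = 1.00), and -0.31 without after 3. An exact permutation test gave p = 0.1, the value that every gene with non-overlapping groups gets here, so it adds nothing to the lack of overlap. USP3, another protease of histone H2A, and USP22, of the SAGA complex, which acts on histone H2B, differed by 0.01 ± 0.24 and 0.25 ± 0.31. USP22 had 10.15, 9.85 and 10.66 after cold and 10.02, 10.22 and 9.66 before cold, highest on after 3.

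USP8 acts on endosomes, where it spares receptors from lysosomal breakdown. It was at 8.36, 9.30 and 7.56 after cold and 9.09, 9.12 and 9.35 before cold. After 2 matched the values before cold, after 1 lay below them and after 3 was lowest, with a change of -0.78 ± 0.42, or -0.35 without after 3 and -1.23 without after 2. The other USP8 probe set gave -0.83 ± 0.44. STAM2, which binds USP8 on endosomes, was at 6.92, 7.38 and 5.91 after cold and 7.51, 7.97 and 7.48 before cold. Its groups did not overlap, and its change was -0.92 ± 0.40 (limma, unadjusted p = 0.0474, adjusted p = 1.00). Other measured ubiquitin receptor genes did not share this. STAM, dim at a mean of 4.45, differed by -0.18 ± 0.51. HGS differed by 0.09 ± 0.34 and was highest on after 3, and the groups of both genes overlapped. USP33 and USP20 are related proteases first known as partners of VHL. USP33 had 7.25, 7.96 and 6.71 after cold and 7.48, 8.02 and 8.40 before cold, a change of -0.66 ± 0.39, with -0.54 ± 0.44 from a second probe set. USP20 was at 8.0, 7.56 and 8.05 after cold and 7.76, 7.91 and 7.47 before cold and differed by 0.16 ± 0.27.

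USP15, a regulator of SMAD signalling, was at 8.72, 8.70 and 7.59 after cold and 8.69, 9.21 and 8.64 before cold, lowest on after 3 and highest on before 5, a change of -0.51 ± 0.37. A second USP15 probe set, with a mean of only 3.79 on the log2 scale, near the lowest intensities of the array, gave -0.88 ± 0.26 (limma, unadjusted p = 0.00981, adjusted p = 1.00) and groups that did not overlap. Its relatives USP4 and USP11 differed by 0.27 ± 0.32 and -0.09 ± 0.30. USP11 had 8.62, 8.79 and 9.44 after cold and 9.22, 8.97 and 8.93 before cold. USP47, which acts in base excision repair, had 7.55, 8.67 and 6.98 after cold and 8.08, 7.99 and 8.61 before cold, high on after 2 and before 6, and a change of -0.49 ± 0.44, or -0.12 without after 3 and -0.96 without after 2. The proteasome-bound USP14 was at 7.86, 8.70 and 7.51 after cold and 8.31, 7.96 and 8.84 before cold, a change of -0.35 ± 0.38. Its neighbours on the proteasome, UCHL5 and PSMD14, differed by -0.24 ± 0.35 and -0.64 ± 0.37, and all 3 genes were lowest on after 3.

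USP10, a protease linked to stress granules and p53, had the highest change of the USP genes, 0.31 ± 0.29, at 9.28, 9.78 and 9.76 after cold and 9.24, 9.0 and 9.65 before cold. Before 6 lay above after 1, so its groups overlapped. USP5, which takes apart free ubiquitin chains, had 8.20, 7.73 and 8.68 after cold and 8.13, 8.38 and 7.91 before cold and differed by 0.06 ± 0.31. USP12 and USP46, which share the activator WDR48, differed by -0.21 ± 0.32 and -0.19 ± 0.35. USP53, thought to be inactive as a protease, was at 4.12, 4.43 and 3.64 after cold and 4.22, 4.91 and 4.78 before cold and differed by -0.57 ± 0.32. The remaining USP genes, USP19, USP21, USP28, USP37, USP38, USP39 and USP42, had changes between -0.19 and 0.23.

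**Figure D5:**
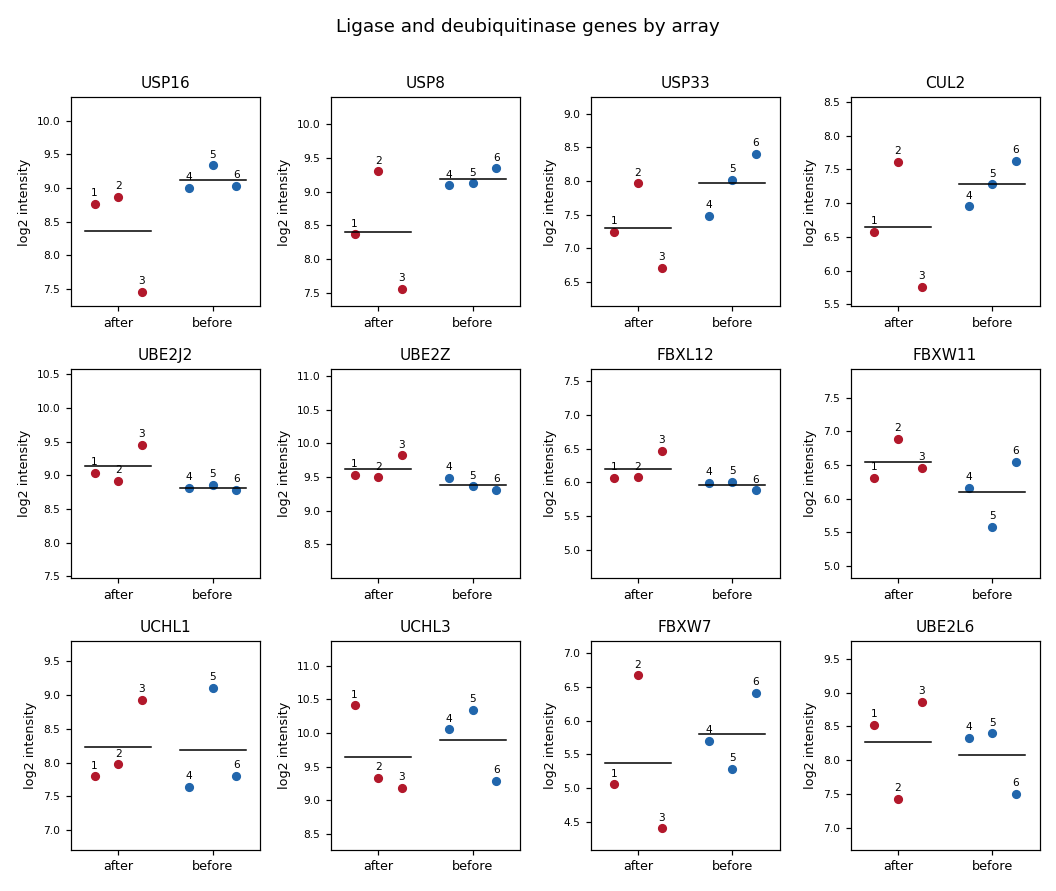
Log2 intensity (vertical axes, each spanning the same number of log2 units) on each array after (red, left) and before cold (blue, right) for 12 ligase, E2 and deubiquitinase genes. Numbers name the arrays and lines the group means; USP16, UBE2J2, UBE2Z and FBXL12 do not overlap, UCHL1 is high on after 3 and before 5, and FBXW7 and UBE2L6 run in opposite order.

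The spread within the groups can be set beside the differences between them. After cold, 32 of the 82 genes spanned more than 2-fold over the 3 arrays, against 38.4% of all genes, and before cold 9 did, against 13.6% of all genes. The difference between group means passed 2-fold in 0. The after 3 array held the lowest value of 38 genes (46.3%, against 32.5% of all genes) and the highest of 22 (26.8%, against 36.4%). After 2 or before 6 held the highest value of 42 genes (51.2%, against 31.7% of all genes) and the lowest of 21 (25.6%, against 42.7%). The median deviation of the 82 genes from their own means was -0.06, 0.14 and -0.24 on the after arrays and -0.02, 0.0038 and 0.24 on the before arrays. For all genes the same medians were 0.04, -0.03 and 0.03 after cold and 0.04, 0.05 and -0.06 before cold. In 8 genes (9.76%, against 7.02% of all genes) the lowest value was on after 3 and the highest on before 5, namely UBA3, UBA6, UBE2B, UBE2V2, UBE2W, USP15, USP16 and USP53.

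Where a gene had several probe sets, they could be set beside each other. Of the 82 genes 22 had more than 1, and in 16 of them all probe sets had the same sign of change. In the other 6, CUL1, CUL7, FBXO7, UBE2A, UBQLN1 and USP38, the signs differed. UBE2A had 0.02 ± 0.25 from the probe set used above and -0.30 ± 0.26 from the other.

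Of the other genes of the pathway, 150 were measured, from 8 lists of ligases, receptors, modifiers and further deubiquitinases. In limma 0 of the 150 passed the threshold and 1 had an unadjusted p under 0.05, STAM2. Their means were higher after cold in 76 and lower in 74, with a median change of 0.0082. Groups did not overlap in 3 of the 150 on the higher side, against 2.02% of all genes. On the lower side there were 4, against 3.00% of all genes. These were ARIH2, COPS8 and UBE3C, higher after cold, and RNF13, SENP7, STAM2 and TRIM38, lower after cold. Of the genes that encode ubiquitin itself 0 of 4 listed carried a single symbol here, and they were not analysed. SUMO, NEDD8 and other ubiquitin-like conjugation genes had 4 of 17 higher and 13 lower, with a median of -0.26, the lowest of these lists, and 0 passed the test. Their median deviation from their own means was 0.03, -0.08 and -0.55 on the after arrays and 0.04, 0.18 and 0.28 on the before arrays. On after 3, 9 of the 17 had their lowest value (52.9%, against 32.5% of all genes). PIAS1, a SUMO ligase, differed by -0.61 ± 0.37. Cullin adaptors, neddylation and COP9 signalosome genes had 9 of 19 higher (median -0.01), with COPS5, the subunit that takes NEDD8 off cullins, at -0.69 ± 0.34 and the cereblon gene CRBN at -0.69 ± 0.39.

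Of 12 genes of the anaphase-promoting complex, 6 lay on each side of 0 (median -0.04), with its subunits ANAPC16 at -0.47 ± 0.35 and ANAPC4 at -0.52 ± 0.44. HECT and RBR ligases had 12 of 21 higher (median 0.05). ITCH, a ligase of lymphocyte tolerance, differed by -0.57 ± 0.34, and UBE3C, whose groups did not overlap, by 0.34 ± 0.24. RING and U-box ligases had 28 of 49 higher (median 0.06). RNF13 (-0.76 ± 0.36) and TRIM38 (-0.46 ± 0.26), which restrains innate immune signalling, did not overlap between groups and were lower after cold. Deubiquitinases outside the USP and UCHL symbols had 4 of 12 higher (median -0.17), with BRCC3, a protease of signalling chains, at -0.84 ± 0.42. Ubiquitin receptors and segregase genes had 13 of 20 higher (median 0.07), while TAX1BP1, an autophagy receptor that also damps NF-kappaB signalling, differed by -0.96 ± 0.43. On after 2 TAX1BP1 was at 9.69, inside its range before cold of 9.64 to 9.89, and it was lowest on after 3. COPS5, CRBN, ANAPC16, ANAPC4, ITCH, RNF13, TRIM38 and BRCC3 were also lowest on after 3. PIAS1 was lowest on after 1, and UBE3C was highest on after 3. Of the other pathway genes together, 38.7% were lowest on after 3, against 32.5% of all genes. The share highest there was 32.7%, against 36.4%.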

How the data were processed

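Total RNA of blood cells from 6 samples was labelled with biotin and hybridised to Affymetrix bovine arrays. The deposited values are intensities on a linear scale, 3.91 to 18225 over 12763 probe sets. GCOS and RMA are named per the submitters' processing notes, without versions, and neither a genome build nor filters are given there. The deposited intensities were converted to log2 with no further normalization or filter and fitted with limma 3.58.1 in R 4.3.3 (lmFit, eBayes, Benjamini-Hochberg over all probe sets, threshold 0.05), with group as the single term. The number of arrays limits the precision. The fitting was tested on simulated data with independent noise in each probe set. These held no pairs and no array differences shared across probe sets, so that test does not cover the spread between arrays seen here.

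The platform annotation gives 8125 probe sets 1 symbol, 56 several and 4582 none. Of the probe sets with 1 symbol, 8109 matched a RefSeq gene of assembly ARS-UCD2.0, with 0 symbols changed, and 81 of the 82 ubiquitin genes matched. The 105 probe sets of the ubiquitin genes were reduced to 1 per gene by the highest mean.

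The genes and lists were chosen with earlier results of these data known. Rules named 35 ubiquitin genes: all E1, cullin, ubiquilin and UCHL genes, those whose groups did not overlap, and, of the UBE2, USP and F-box families, the 3 with the highest mean and the 3 with the widest range. The others were described after their values were seen. Of 8 further pathway lists, the 2 genes with the smallest p were named, and NEDD8, SAE1, UBA7 and ISG15 as partners of described genes. STAM and HGS were named beside STAM2, and ARIH2, COPS8 and SENP7 because their groups did not overlap. There were 7 lists of blood cell markers. Alternatives were a filter on dim probe sets, an intensity trend, array weights, median centring, quantile normalization, the mean of a gene's probe sets, arrays left out and replicate blocks. The count of genes 1.5-fold lower was recomputed under these after seeing the data. The labels do not tell which samples share an animal, so the fit holds no pairing.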

Additional observations from a re-analysis of the deposited data

How the results depend on the processing

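Adjusted p under 0.05 was reached by 0 probe sets in limma under every alternative run; the smallest adjusted p was 0.27, without after 2. Counts at an unadjusted p under 0.05 moved more: 63 of all probe sets and 1 ubiquitin gene became 27 and 0 without the dimmest 50%, 662 and 2 with array weights, and 1234 and 9 without after 2 and before 6 together. Median centring gave 109 probe sets, quantile normalization 100, and the mean of a gene's probe sets 0 ubiquitin genes. Leaving out 1 array gave 5 to 1787 probe sets, 0 to 13 ubiquitin genes at that p, 0 to 18 lower by 1.5-fold, and 32 to 49 with a higher mean after cold. The highest of the first 3 counts came without after 2, where 15.9% of the ubiquitin genes and 14.0% of all probe sets passed. The 7 genes lower by 1.5-fold became 15 without after 2 and before 6 together (18.3%, against 14.4% of all genes). Calling by unadjusted p gave 63 probe sets and 1 ubiquitin gene in place of 0, and calling by 1.5-fold gave 898 and 7. The array weights left after 1 a weight of 0.0019.

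A replicate block for each of the 6 ways to match the arrays gave 33 probe sets and 0 ubiquitin genes (after 1 with before 4, 2 with 5, 3 with 6), 1168 and 6 (1 with 4, 2 with 6, 3 with 5), 24 and 0 (1 with 5, 2 with 4, 3 with 6) and 656 and 9 (1 with 5, 2 with 6, 3 with 4), while the other 2 matchings gave 0 ubiquitin genes. These counts are at an unadjusted p under 0.05. For the matching with 1168 probe sets, the share of the ubiquitin genes lay under that of all probe sets (7.32% against 9.15%). Of its 6 genes, 5 were lower after cold and 1 was higher. For the matching with 656 probe sets, or 5.14% of all, the share of the ubiquitin genes lay above that of all probe sets. Its 9 genes were all lower after cold. Which matching is true is not known.

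Of 658 values of the 35 named genes under alternatives, 34 had the opposite direction and 0 passed the threshold, and 19 genes kept 1 direction throughout. Opposite values were 0.16 for CUL5, -0.00075 for CUL7, -0.27 for UBA1, -0.10 for UBE2Q1 and 0.0081 for USP11 with array weights, -0.013 for UCHL1 without after 2 and before 6, and -0.045 for CUL7 and 0.0090 for UBQLN1 with the mean of probe sets. The cause of these turns was not tested. With 1 array left out, the change of CUL1 ranged from -0.33 to 0.024, FBXL20 from -0.53 to 0.26, FBXO7 from -0.32 to 0.014, FBXW7 from -1.07 to 0.066, UBA1 from -0.12 to 0.33, UBE2B from -0.22 to 0.019, UBE2H from -0.12 to 0.47, UBE2L6 from -0.10 to 0.62, UBE2Q1 from -0.071 to 0.13, UBQLN1 from -0.52 to 0.17, UBQLN2 from -0.11 to 0.34, UCHL1 from -0.30 to 0.51, UCHL5 from -0.56 to 0.065 and USP11 from -0.34 to 0.075. Without a turn of direction but with moves of over 1.5 times, CUL5 ranged from -0.55 to -0.099, CUL7 from 0.023 to 0.13, FBXL4 from -0.80 to -0.27, FBXL5 from -0.60 to -0.14, FBXO9 from -0.22 to -0.027, UBE2D3 from -0.70 to -0.14, UBQLN4 from 0.084 to 0.39, UCHL3 from -0.64 to -0.026, USP10 from 0.16 to 0.48 and USP22 from 0.033 to 0.44.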
